A study of Mus musculus with 35 samples.

Results

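The 9 genes described here mark the capillary endothelial cells of the mouse lung. Car4, Apln, Tbx2 and Fibin mark aerocytes, and Aplnr, Gpihbp1, Plvap, Kit and Sema3c mark general capillary cells. They were chosen by name, as known markers of these cells and with earlier results of these data known, out of the 54532 genes in the count table, and all 9 passed the filter on low counts in every comparison. Whole lungs were profiled by poly-A RNA sequencing from adult male and female mice of at least 3 months. Control mice were wildtype animals of the B6/129SJ2 background, Cav1-KO mice carried the global caveolin-1 knockout labelled Cav1(tm1Mls/)J, and Cav1-RC mice carried the same knockout with caveolin-1 put back in endothelial cells. The promoter that drives the reconstituted caveolin-1 is not given in the sources used here. Each genotype and sex was kept for 6 weeks in standard cages (normoxia) or in chambers at 10% oxygen (hypoxia), which gave 12 groups and 34 libraries. Groups held 3 libraries each, except the female Cav1-KO and female Cav1-RC groups in normoxia, which held 2.

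The alveolar capillary bed is a mosaic of both cell types. Aerocytes are large, thin cells that lie against the alveolar epithelium where gas is exchanged, while general capillary cells line the rest of the network, control vascular tone and act as progenitors that can divide and replace aerocytes after injury. Apelin, the ligand encoded by Apln, is made by aerocytes, and its receptor, encoded by Aplnr, sits on general capillary cells, so the pair joins the cell types in a signalling circuit.

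The libraries held between 12425535 and 33343006 counts (median 18015172.5). Cav1 read 284 to 394 FPKM (fragments scaled to gene length and library size) in every Control library and 0.423 to 1.89 FPKM in every Cav1-KO and Cav1-RC library, so this gene checked the knockout in both lines but not the reconstitution. The sex-linked genes of 4 libraries put their labels in doubt. Of these, 3 labelled male (Control hypoxia replicate 2 and Cav1-RC normoxia replicates 1 and 2) read as female, and female Cav1-KO hypoxia replicate 2 held Xist at a female level together with Y-linked genes at 6.94% of the male level. In all, 12 libraries, 2 of these 4 among them, came from animals on the study's western blot list, here called listed libraries. Earlier results of these data set them apart from the rest, and no measure of this is given here. The listed libraries were all 6 Cav1-KO hypoxia libraries, all 3 male Control hypoxia libraries, and replicate 1 in 3 female groups (Control at both oxygen levels, Cav1-RC in normoxia). Within Cav1-KO mice and within male Control mice, hypoxia and being listed therefore cannot be told apart by any direct comparison. The main marker results are also given with a term for listed libraries, and the oxygen results of Cav1-KO lungs cannot be given without them. The labels name separate mice by replicate number only, so p-values measure the spread between these libraries.

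In Control lungs in normoxia, all 9 markers were present in every library. By mean FPKM, a scale corrected for gene length, the order was Plvap (318 ± 70.9, SD, n = 6), Tbx2 (138 ± 39.9), Car4 (124 ± 30.4), Gpihbp1 (72.2 ± 21.0), Fibin (52.9 ± 9.94), Sema3c (50.03 ± 14.7), Kit (21.4 ± 4.60), Apln (21.2 ± 7.70) and Aplnr (15.4 ± 3.38). Only 2 steps of this order showed no overlap between the 6 libraries of neighbouring genes: Plvap lay above Tbx2, and Sema3c lay above Kit. The other neighbours overlapped in range, and Fibin was above Sema3c in only 3 of the 6 libraries. Neither cell type had the more abundant markers throughout, since Tbx2 and Car4 of the aerocyte set stood above 4 of the 5 general capillary markers by mean and Apln below 4 of them.

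**Figure D1:**
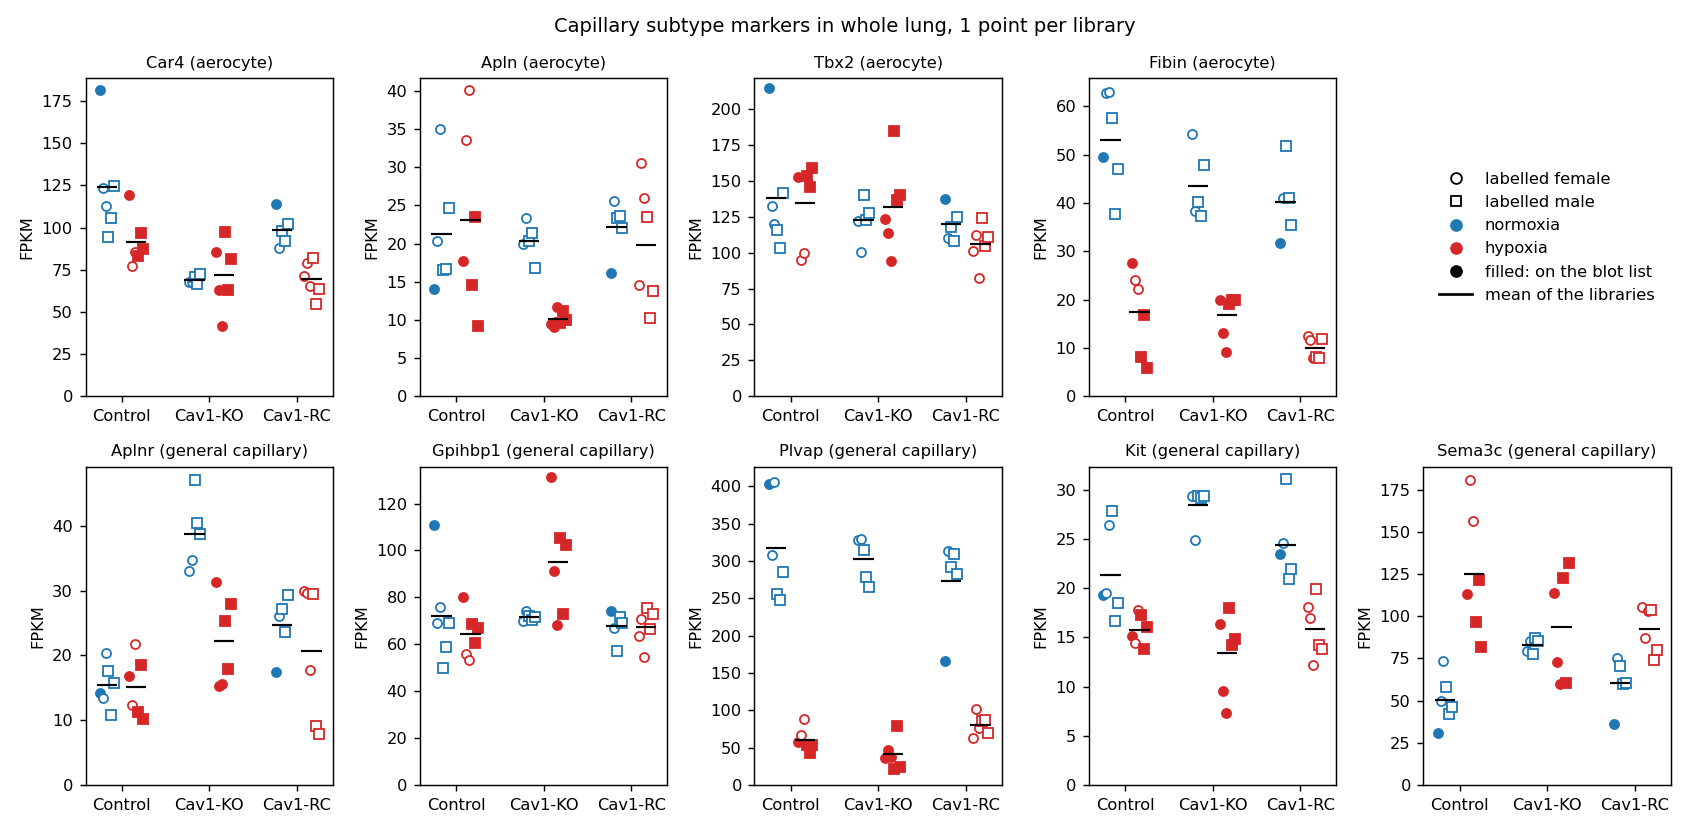
Level of each marker (FPKM, vertical axes from 0) in each of the 34 libraries, by genotype, with normoxia in blue, hypoxia in red, circles for mice labelled female, squares for mice labelled male, filled symbols for listed libraries and a bar for the mean. Plvap and Fibin libraries from hypoxia all lie below those from normoxia, and Aplnr is highest in Cav1-KO normoxia, where its 5 libraries read 33.0 to 47.1 FPKM.

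Plvap, a general capillary marker, and Fibin, an aerocyte marker, had the largest changes with hypoxia of the 9 markers in every genotype by the fits without a list term, and both fell. With a term for listed libraries, Sema3c (1.76) changed by more than Fibin (-1.65) in Control lungs. Plvap encodes the protein of the diaphragms that span endothelial fenestrae and caveolae, and lies at chr8:71497765-71511752 on the reverse strand (mm10). Over all genotypes, the 16 normoxia libraries read 166 to 406 FPKM (median 300.2) and the 18 hypoxia libraries 21.4 to 101 FPKM (median 60.5), without overlap. In bulk lung, fewer cells of a type and less RNA per cell cannot be told apart.

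By group, Control females read 404, 308 and 406 FPKM in normoxia and 57.6, 66.6 and 88.8 in hypoxia. Control males read 256, 248 and 285 FPKM in normoxia and 53.2, 43.4 and 53.9 in hypoxia. Every hypoxic Control library was far below every normoxic one, and in normoxia the females were above the males. Cav1-KO females fell from 327.5 and 330.1 FPKM to 35.6, 47.3 and 38.0, and Cav1-KO males from 315, 278 and 265 FPKM to 21.4, 78.9 and 24.4. Replicate 2 of the hypoxic Cav1-KO males stood above the other hypoxic Cav1-KO libraries but still far below normoxia. Cav1-RC females read 166 and 314 FPKM in normoxia, where the lower value was the listed library, and 63.3, 101 and 76.6 in hypoxia. Cav1-RC males, among whom no library was listed, read 292, 309.5 and 283 FPKM in normoxia and 85.0, 86.6 and 69.4 in hypoxia.

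With the sexes fitted together, Plvap fell 5.22-fold in Control lungs (log2 fold change -2.39, standard error 0.14, adjusted p = 1.86e-05), 7.56-fold in Cav1-KO lungs (log2 fold change -2.92, standard error 0.29, adjusted p = 6.18e-06) and 3.33-fold in Cav1-RC lungs (log2 fold change -1.73, standard error 0.17, adjusted p = 0.000683). These are edgeR quasi-likelihood tests with Benjamini-Hochberg adjustment over all genes tested, and a gene is called where the adjusted p is under 0.05 and the absolute log2 fold change is above 1. With a term for listed libraries in a fit of all 34, the falls were -2.23, -2.60 and -1.79 and all were still called. Without the 4 libraries of doubtful sex they were -2.34, -2.97 and -1.69, also all called.

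Fibin encodes a secreted protein first described in fin bud development and lies at chr2:110360917-110363183 on the reverse strand. Its 16 normoxia libraries read 31.7 to 62.9 FPKM (median 44.1) and its 18 hypoxia libraries 5.82 to 27.6 FPKM (median 12.7), again without overlap. Control females read 49.4, 62.8 and 62.9 FPKM in normoxia and 27.6, 24.0 and 22.1 in hypoxia, and Control males 57.6, 37.8 and 47.0 in normoxia and 8.13, 16.9 and 5.82 in hypoxia. The oxygen levels did not overlap in either sex, and replicate 3 of the hypoxic Control males held the lowest value of all 34 libraries.

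Cav1-KO females read 54.2 and 38.4 FPKM in normoxia and 19.9, 12.97 and 9.06 in hypoxia. Cav1-KO males read 40.2, 37.2 and 47.8 FPKM in normoxia and a narrow 19.1, 20.0 and 19.9 in hypoxia. Within both sexes the oxygen levels did not overlap. Cav1-RC females read 31.7 and 40.9 FPKM in normoxia and 12.4, 11.5 and 7.81 in hypoxia, and Cav1-RC males 51.8, 41.1 and 35.5 in normoxia and 8.11, 7.81 and 11.8 in hypoxia. All 6 hypoxic Cav1-RC libraries were below every normoxic library of any genotype. With the sexes together, Fibin fell 3.31-fold in Control lungs (log2 fold change -1.73, standard error 0.23, adjusted p = 0.00264), 2.68-fold in Cav1-KO lungs (log2 fold change -1.42, standard error 0.17, adjusted p = 1.84e-05) and 4.01-fold in Cav1-RC lungs (log2 fold change -2.005, standard error 0.17, adjusted p = 0.000144). With the list term the falls were -1.65, -1.31 and -2.03, and all 3 were still called.

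The 300-base promoter windows (250 bases before and 50 after the start) that RefSeq gives for Fibin, Sema3c and Apln in GRCm38.p6, the assembly that mm10 names, are shown because these genes changed in different ways with oxygen: Fibin was called lower in every genotype, Sema3c higher in Control lungs and Apln lower in Cav1-KO lungs. Capitals mark ACGTG or GCGTG on either strand (on the reverse strand, CACGT or CACGC), the core letters of the hypoxia response element.
Fibin, chr2:110362944-110363243, reverse strand: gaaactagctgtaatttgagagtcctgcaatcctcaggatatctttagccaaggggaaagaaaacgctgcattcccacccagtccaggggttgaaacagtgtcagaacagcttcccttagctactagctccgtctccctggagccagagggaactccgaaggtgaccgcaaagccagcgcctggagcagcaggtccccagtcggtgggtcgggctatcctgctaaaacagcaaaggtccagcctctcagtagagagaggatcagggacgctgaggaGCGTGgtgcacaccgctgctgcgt
Sema3c, chr5:17574566-17574865, forward strand: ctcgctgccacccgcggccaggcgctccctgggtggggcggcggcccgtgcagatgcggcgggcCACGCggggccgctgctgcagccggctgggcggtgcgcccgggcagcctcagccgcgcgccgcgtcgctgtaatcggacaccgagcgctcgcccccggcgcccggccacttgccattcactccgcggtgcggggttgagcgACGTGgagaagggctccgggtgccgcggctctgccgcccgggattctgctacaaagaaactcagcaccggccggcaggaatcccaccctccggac
Apln, chrX:48034804-48035103, reverse strand: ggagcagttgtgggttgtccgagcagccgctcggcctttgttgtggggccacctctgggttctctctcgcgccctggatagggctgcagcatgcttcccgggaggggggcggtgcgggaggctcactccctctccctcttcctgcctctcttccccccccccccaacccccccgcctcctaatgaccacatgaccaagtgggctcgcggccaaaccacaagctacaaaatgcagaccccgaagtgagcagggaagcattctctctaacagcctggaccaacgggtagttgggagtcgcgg
Fibin held GCGTG 27 bases after its RefSeq start, Sema3c held GCGTG on the reverse strand 186 bases before and ACGTG 45 bases before its RefSeq start, and Apln held neither. The RefSeq starts of Fibin and Sema3c lie inside the spans given for these genes in the text. The whole Sema3c window lies inside its span. Such letters are common, since 43.8% of the 32851 RefSeq windows of this length held at least 1 match. Of the other markers, Car4 held ACGTG on the reverse strand 3 bases after its start and Kit held GCGTG 80 bases before its start in the first of its windows, while Tbx2, Aplnr, Gpihbp1 and Plvap had no window in the table used here. A match is only a description of these letters.

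Sema3c, which encodes the secreted guidance factor semaphorin 3C (chr5:17574281-17730268, forward strand), was the 1 marker called higher with hypoxia, and the call was made in Control lungs. Control females read 30.7, 49.6 and 73.7 FPKM in normoxia and 113, 181 and 157 in hypoxia. Control males read 58.3, 42.0 and 46.0 FPKM in normoxia and 96.4, 121 and 81.7 in hypoxia. In both sexes every hypoxic library was above every normoxic one, and the lowest female value at each oxygen level was the listed library. Cav1-KO females read 79.3 and 85.5 FPKM in normoxia and 114, 72.8 and 59.8 in hypoxia, and Cav1-KO males 77.7, 87.3 and 85.1 in normoxia and 122, 60.3 and 131 in hypoxia. Here the hypoxic libraries lay on both sides of the normoxic ones. Cav1-RC females read 36.3 and 75.2 FPKM in normoxia and 105, 87.2 and 103 in hypoxia, and Cav1-RC males 70.3, 59.5 and 60.2 in normoxia and 104, 74.3 and 79.7 in hypoxia, without overlap within either sex.

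With the sexes together, Sema3c rose 2.46-fold in Control lungs (log2 fold change 1.30, standard error 0.21, adjusted p = 0.00987). The values were 0.15 (standard error 0.20, adjusted p = 0.536) in Cav1-KO and 0.62 (standard error 0.18, adjusted p = 0.113) in Cav1-RC lungs, and neither passed. With the list term the Control rise was 1.76 (adjusted p = 2.63e-06) and the Cav1-KO value 0.99 (adjusted p = 0.0681).

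Kit, the receptor tyrosine kinase for stem cell factor (chr5:75574916-75656722, forward strand), fell with hypoxia in Cav1-KO lungs. Cav1-KO females read 29.4 and 24.9 FPKM in normoxia and 16.4, 9.53 and 7.30 in hypoxia, and Cav1-KO males 29.4, 29.2 and 29.4 in normoxia and 18.0, 14.2 and 14.8 in hypoxia, without overlap. Kit changed by -1.11 (standard error 0.16, adjusted p = 0.000113) in Cav1-KO lungs. In Control and Cav1-RC lungs it was -0.44 (standard error 0.15, adjusted p = 0.195) and -0.63 (standard error 0.15, adjusted p = 0.0601), short of the threshold. With the list term the Cav1-KO value was -0.99 (adjusted p = 0.0596), no longer called, and the Cav1-RC value -0.66 (adjusted p = 0.0246) passed the adjusted p alone. Kit also marks mast cells: the summed level of 6 mast cell genes lay between 4.10 and 14.8 FPKM over all libraries, and 3 of the 6 were at 0 in at least 1 library. Between oxygen levels 4 of the 6 could be tested in Cav1-KO lungs and 5 in Control and in Cav1-RC lungs. None of those tested was called, with list medians of -0.50 in Cav1-KO, -0.30 in Control and 0.27 in Cav1-RC lungs. The part of mast cells in the Kit values was not tested.

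Apln, the gene of the ligand apelin (chrX:48025146-48034853, reverse strand), differed in hypoxia by genotype. Cav1-KO females read 20.0 and 23.4 FPKM in normoxia and 9.48, 9.09 and 11.7 in hypoxia. Cav1-KO males read 20.4, 21.4 and 16.8 FPKM in normoxia and 9.55, 11.2 and 9.96 in hypoxia. The 6 hypoxic libraries lay together below all 5 normoxic ones. In Control lungs the hypoxic libraries spread from 9.27 to 40.1 FPKM, on both sides of the normoxic range of 14.0 to 35.01 FPKM. The 3 hypoxic Cav1-RC females read 14.5, 30.5 and 26.0 FPKM and the 3 males 23.5, 10.2 and 13.8. Against 16.1 to 25.6 FPKM in Cav1-RC normoxia, the female values lay on both sides and 2 of the male values below.

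The log2 fold change of Apln with hypoxia was -1.03 (standard error 0.10, adjusted p = 3.66e-06) in Cav1-KO lungs, against 0.06 (standard error 0.28, adjusted p = 0.961) in Control and -0.19 (standard error 0.23, adjusted p = 0.766) in Cav1-RC lungs. All 6 hypoxic Cav1-KO libraries were listed, and with the list term the Cav1-KO value was -0.12 (adjusted p = 0.916), so this call was lost. Leaving out 1 library (female Cav1-KO hypoxia replicate 2, female Cav1-KO normoxia replicate 2 or male Cav1-KO normoxia replicate 2) took the fold change just under the threshold, at -0.98, -0.97 and -0.99.

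Aplnr, the gene of the apelin receptor (chr2:85136225-85139923, forward strand), had a log2 fold change of -0.78 (standard error 0.18, adjusted p = 0.00267) with hypoxia in Cav1-KO lungs, under the fold threshold. Without the 4 libraries of doubtful sex it was -0.67 (adjusted p = 0.0672) and did not pass. Car4, which encodes carbonic anhydrase 4, a membrane-bound enzyme of carbon dioxide exchange (chr11:84957786-84966044, forward strand), gave -0.42 (standard error 0.15, adjusted p = 0.237) in Control, 0.04 (standard error 0.16, adjusted p = 0.836) in Cav1-KO and -0.53 (standard error 0.12, adjusted p = 0.05005) in Cav1-RC lungs. Gpihbp1, which anchors lipoprotein lipase on the capillary surface (chr15:75596628-75599481, forward strand), passed the adjusted p in Cav1-KO lungs, where it changed by 0.40 (standard error 0.15, adjusted p = 0.0335). This value was -0.08 (adjusted p = 0.90) with the list term. Tbx2, a T-box transcription factor (chr11:85832551-85841948, forward strand), did not pass in any genotype, with log2 fold changes of -0.03, 0.10 and -0.20. The general capillary markers did not share 1 direction: Plvap fell in every genotype and Sema3c rose in Control lungs. In Cav1-KO lungs Aplnr and Gpihbp1 passed the adjusted p with opposite signs in the main fit only. Aplnr did not pass without the 4 libraries of doubtful sex, nor Gpihbp1 with the list term.

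Counted over both sexes, 3 of 9 markers were called between hypoxia and normoxia in Control lungs (2 lower, 1 higher), where 0.846% of all genes tested were called. In Cav1-KO lungs 4 of 9 were called, all lower, against 17.6% of all genes. In Cav1-RC lungs 2 of 9 were called, both lower, against 1.22% of all genes. Within single sexes, 3 of 9 were called in male Control lungs (6.36% of all genes), 4 of 9 in female Cav1-KO (13.3%), 2 of 9 in male Cav1-KO (17.7%) and 2 of 9 in male Cav1-RC lungs (2.27%). No marker was called in female Control lungs (0.0175% of all genes) or female Cav1-RC lungs (0.0285%) by edgeR, although 4 and 3 of 9 had an unadjusted p under 0.05 and DESeq2 called 3 and 2. Without the listed replicates of the female Control groups, Plvap (-2.24, adjusted p = 0.00379), Fibin (-1.48, adjusted p = 0.00315) and Sema3c (1.42, adjusted p = 0.0102) were all called there on 2 libraries a group. That fit was added after the data were seen, and the share of all genes it called is not given here. Male Cav1-RC lungs gave the comparison without any listed library, and there Plvap changed by -1.87 (standard error 0.11, adjusted p = 0.000101) and Fibin by -2.20 (standard error 0.19, adjusted p = 0.000757). Of its 6 libraries, replicates 1 and 2 of normoxia had sex genes that went against the label. Without them 1 normoxia library was left, which a fit over all remaining libraries assumes to vary like those of the other groups, and the values were -1.81 (adjusted p = 0.321) for Plvap and -1.93 (adjusted p = 0.0238) for Fibin.

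**Figure D2:**
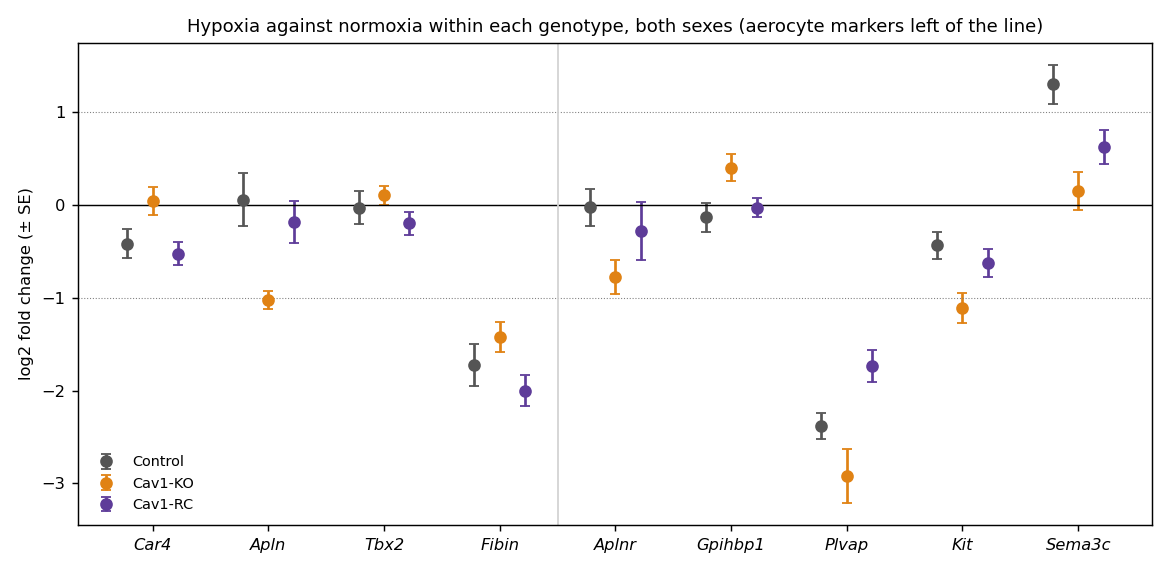
Log2 fold change of each marker in hypoxia against normoxia with the sexes together (points, with the standard error as bars) in Control, Cav1-KO and Cav1-RC lungs, with dotted lines at the fold threshold. Plvap and Fibin lie below -1 in all genotypes, Sema3c lies above 1 in Control lungs, and Apln and Kit lie just below -1 in Cav1-KO lungs.

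To ask whether the response to oxygen differed between genotypes, the difference of the 2 fold changes was tested itself. Between Cav1-KO and Control lungs 3 of 9 markers passed (20.2% of all genes did): Apln (log2 fold change -1.09, standard error 0.33, adjusted p = 0.0306), Sema3c (log2 fold change -1.15, standard error 0.31, adjusted p = 0.0190) and Kit (log2 fold change -0.68, standard error 0.24, adjusted p = 0.0475) all responded more negatively in Cav1-KO lungs. Between Cav1-RC and Cav1-KO lungs 3 of 9 passed (42.8% of all genes did), namely Plvap (log2 fold change 1.18, standard error 0.36, adjusted p = 0.0127), Apln (log2 fold change 0.84, standard error 0.27, adjusted p = 0.0180) and Car4 (log2 fold change -0.57, standard error 0.22, adjusted p = 0.0379). Between Cav1-RC and Control lungs no marker passed by edgeR (0.114% of all genes did), with 2 of 9 at an unadjusted p under 0.05. DESeq2 was not run for this test. Between Cav1-RC and Cav1-KO lungs the share of markers that passed was below that of all genes. With the list term 1 of the 27 tests passed, Sema3c between Cav1-RC and Control lungs (-1.30, adjusted p = 0.0081), and none of the 6 above. Those 6 gave -0.63 for Apln, -0.76 for Sema3c and -0.63 for Kit between Cav1-KO and Control lungs and 0.81 for Plvap between Cav1-RC and Cav1-KO lungs, where Apln (-0.28) and Car4 (0.12) turned sign.

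The list term itself gave the difference between listed and other libraries of the same group. It rests on the 3 female groups that held both kinds, with 1 listed library each against 5 others in all, none of them male or Cav1-KO. It passed the adjusted p in 5 of 9 markers, against 45.8% of all genes, and 5 of 9 had an unadjusted p under 0.05. It passed the fold threshold in none, so 0 of 9 were called, against 13.5% of all genes. Listed libraries were higher in Tbx2 (log2 fold change 0.62, standard error 0.12, adjusted p = 0.000221), Car4 (log2 fold change 0.55, standard error 0.15, adjusted p = 0.00502) and Gpihbp1 (log2 fold change 0.48, standard error 0.15, adjusted p = 0.00925), and lower in Apln (log2 fold change -0.91, standard error 0.26, adjusted p = 0.00664) and Sema3c (log2 fold change -0.84, standard error 0.21, adjusted p = 0.00228). Plvap, Fibin, Kit and Aplnr did not pass. Among the libraries, female Control normoxia replicate 1 read 181 FPKM of Car4, 215 of Tbx2 and 111 of Gpihbp1 against at most 123, 132 and 75.8 FPKM in the other replicates of its group.

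**Figure D3:**
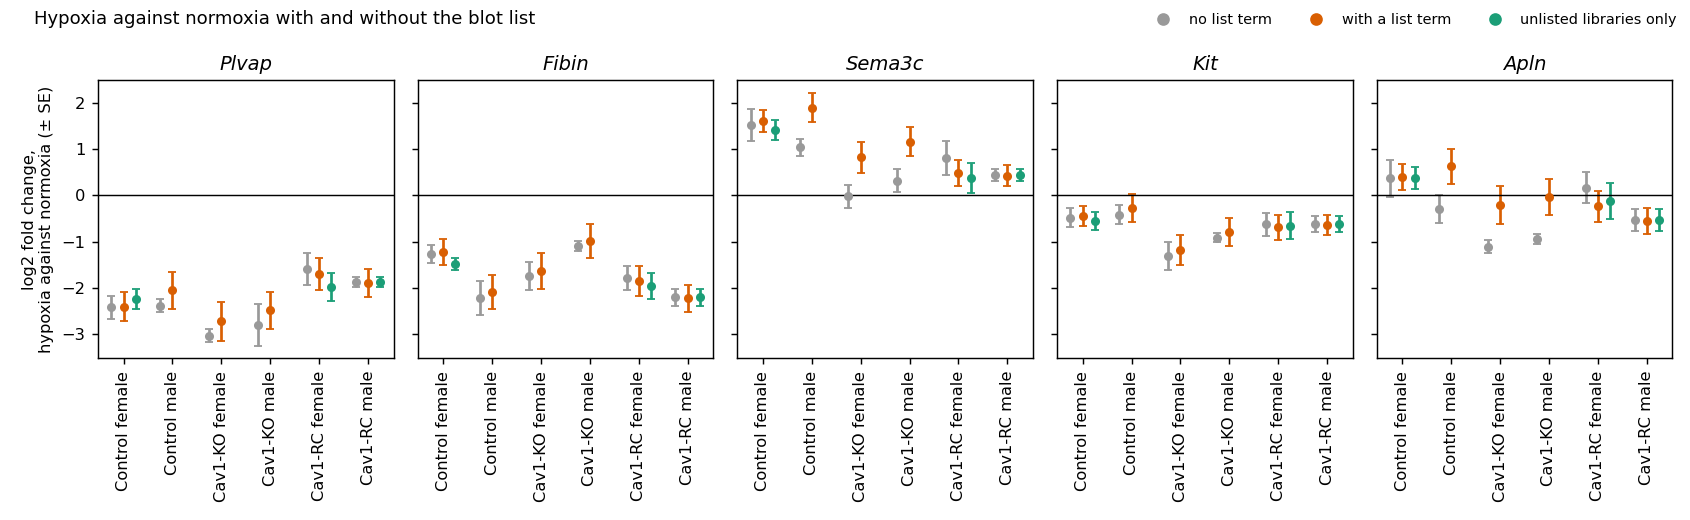
Log2 fold change in hypoxia against normoxia (points, with the standard error as bars) for Plvap, Fibin, Sema3c, Kit and Apln in each genotype and sex, from the fits without a list term (grey), from 1 fit of 34 libraries with a list term (orange) and from unlisted libraries alone where both oxygen levels have any (green). Plvap and Fibin lie below 0 under every fit drawn, while Apln in Cav1-KO lungs moves towards 0 and Sema3c in Cav1-KO and male Control lungs moves up with the list term.

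In normoxia, Aplnr was the marker called between Cav1-KO and Control lungs. Control females read 14.3, 13.5 and 20.4 FPKM and Cav1-KO females 33.0 and 34.7. Control males read 17.6, 10.7 and 15.8 FPKM and Cav1-KO males 47.1, 40.4 and 38.8. All 5 Cav1-KO libraries were above all 6 Control libraries. With the sexes together Aplnr was 2.45-fold higher in Cav1-KO lungs (log2 fold change 1.29, standard error 0.15, adjusted p = 0.000470), and in males alone the difference was 1.51 (standard error 0.18, adjusted p = 0.00327). It was 1.28 (adjusted p = 0.00181) with the list term and 1.30 (adjusted p = 0.00325) without the 4 libraries of doubtful sex.

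Car4 moved the other way. Cav1-KO females read 67.8 and 67.6 FPKM and Cav1-KO males 70.5, 66.6 and 72.7, a narrow band below all 6 Control libraries, which read 181, 123 and 113 in females and 94.3, 106 and 125 in males. The difference was -0.84 (standard error 0.14, adjusted p = 0.00276) on the log2 scale, past the adjusted p and under the fold threshold. Sema3c was higher in Cav1-KO normoxia, at 77.7 to 87.3 FPKM against 30.7 to 73.7 in Control libraries, with a difference of 0.72 (standard error 0.19, adjusted p = 0.0302). In the same comparison 4 of 5 lymphocyte genes were called lower in Cav1-KO lungs (list median -1.18), where 5.78% of all genes were called. Of the same lymphocyte genes, 2 of 5 were called higher in Cav1-RC than in Cav1-KO normoxia (4.28% of all genes). Their part in the Aplnr and Car4 results was not tested.

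The same comparison in hypoxia gave other genes. Apln was called lower in hypoxic Cav1-KO than in hypoxic Control lungs (log2 fold change -1.11, standard error 0.23, adjusted p = 0.0131). Gpihbp1 was higher, under the fold threshold (log2 fold change 0.56, standard error 0.17, adjusted p = 0.0450). Apln read 9.09 to 11.7 FPKM in Cav1-KO libraries and 9.27 to 40.1 in Control libraries, with overlap only at replicate 3 of the Control males. In males, where all 6 hypoxic libraries were listed, no marker passed. Leaving out male Control hypoxia replicate 2 took the Apln difference to -0.93 (adjusted p = 0.0218) and leaving out female Control hypoxia replicate 3 to -0.99 (adjusted p = 0.0358). All 6 Cav1-KO and 4 of the 6 Control libraries here were listed, and with the list term the Apln difference was -0.77 (adjusted p = 0.0171), under the fold threshold. Aplnr read 15.2 to 31.3 FPKM in hypoxic Cav1-KO against 10.2 to 21.8 FPKM in hypoxic Control libraries, and the difference of 0.55 (standard error 0.23, adjusted p = 0.109) did not pass. In the same comparison the erythroid genes Slc4a1 (3.93), Hbb-bs (2.84) and Hba-a1 (2.75) were called higher in Cav1-KO lungs, the globin genes having near-identical copies that can share reads. Their part in the Apln and Gpihbp1 values was not tested.

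Over both sexes, 1 of 9 markers was called between Cav1-KO and Control lungs in normoxia (5.78% of all genes) and 1 of 9 in hypoxia (4.14%). Within single sexes only Aplnr in male normoxia was called (1 of 9, 5% of all genes). In female normoxia (0.122%), female hypoxia (0.768%) and male hypoxia (0.929%) edgeR called 0 of 9, with 2, 4 and 3 of 9 at an unadjusted p under 0.05 and 2, 1 and 0 called by DESeq2.

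Cav1-RC lungs differ from Cav1-KO lungs, by label, in endothelial caveolin-1. The Cav1 counts did not show the difference (log2 fold change -0.11, adjusted p = 0.841, in normoxia and 0.44, adjusted p = 0.252, in hypoxia, over both sexes). In normoxia the mean levels of Aplnr and Car4 in Cav1-RC libraries lay between those of Cav1-KO and Control libraries. Aplnr read 17.4 and 26.1 FPKM in Cav1-RC females and 27.2, 23.6 and 29.4 in Cav1-RC males, below every Cav1-KO library. Car4 read 114 and 87.6 FPKM in females and 98.0, 92.2 and 102 in males, above every Cav1-KO library. The differences were -0.65 (standard error 0.12, adjusted p = 0.00729) for Aplnr and 0.53 (standard error 0.09, adjusted p = 0.00534) for Car4, both under the fold threshold. In male mice Sema3c also passed the adjusted p (log2 fold change -0.39, standard error 0.08, adjusted p = 0.00964), at 59.5 to 70.3 FPKM in Cav1-RC and 77.7 to 87.3 FPKM in Cav1-KO libraries. With the list term, Aplnr gave -0.61 (adjusted p = 0.285) and Car4 0.37 (adjusted p = 0.146), neither of which passed. Sex genes went against the label in 2 of the 3 male Cav1-RC normoxia libraries. Without the 4 libraries of doubtful sex Aplnr gave -0.58 (adjusted p = 0.543) and Car4 0.55 (adjusted p = 0.193) over both sexes, and Sema3c -0.47 in males, and none passed.

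In hypoxia 5 of 9 markers passed the adjusted p between Cav1-RC and Cav1-KO lungs without reaching the fold threshold in both sexes together, where 52.6% of all genes passed the adjusted p. Apln was higher in Cav1-RC lungs (log2 fold change 0.92, standard error 0.20, adjusted p = 0.00238), and so was Plvap (log2 fold change 0.97, standard error 0.27, adjusted p = 0.0101). Fibin (log2 fold change -0.75, standard error 0.18, adjusted p = 0.00386), Gpihbp1 (log2 fold change -0.51, standard error 0.15, adjusted p = 0.0112) and Tbx2 (log2 fold change -0.31, standard error 0.12, adjusted p = 0.0384) were lower. Each cell type thus had markers in both directions. Within single sexes Apln was called in females (log2 fold change 1.22, standard error 0.26, adjusted p = 0.0158) and Fibin in males (log2 fold change -1.10, standard error 0.16, adjusted p = 0.000995). Without male Cav1-RC hypoxia replicate 2 the Fibin value was -0.99, under the fold threshold, and without female Cav1-KO hypoxia replicate 1 or 2 the Apln value missed the adjusted p (0.0617 and 0.0633). Every hypoxic Cav1-KO library was listed and no hypoxic Cav1-RC library was, so genotype and being listed cannot be told apart here directly. With the list term Sema3c passed the adjusted p (-0.87, adjusted p = 0.0442) and Apln gave 0.01 (adjusted p = 0.993), Plvap 0.64 (adjusted p = 0.253) and Fibin -0.87 (adjusted p = 0.0909). Gpihbp1 gave -0.04 (adjusted p = 0.937) and Tbx2 turned to 0.30 (adjusted p = 0.257). Without the 4 libraries of doubtful sex and with no list term, Plvap was called (1.04, adjusted p = 0.0029) and Tbx2 did not pass (-0.30, adjusted p = 0.139). Apln, Fibin and Gpihbp1 still passed the adjusted p there, under the fold threshold.

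Over both sexes edgeR called 0 of 9 markers between Cav1-RC and Cav1-KO lungs in normoxia (4.28% of all genes) and 0 of 9 in hypoxia (14.7%), with 3 and 5 of 9 at an unadjusted p under 0.05 and none called by DESeq2. In single sexes 1 of 9 was called in female hypoxia (8.98%) and 1 of 9 in male hypoxia (14.8%). In female normoxia (0.1%) and male normoxia (3.59%) edgeR called 0 of 9, with 2 and 4 of 9 at an unadjusted p under 0.05 and none called by DESeq2.

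Between Cav1-RC and Control lungs edgeR called none of 9 markers at either oxygen level. This held over both sexes in normoxia (2.28% of all genes called) and hypoxia (3.73%), where 2 and 5 of 9 had an unadjusted p under 0.05 and DESeq2 called none, and in female normoxia (0.137%), male normoxia (2.45%), female hypoxia (0.832%) and male hypoxia (9.9%). Over the 4 comparisons within a sex, 8 of 36 tests had an unadjusted p under 0.05, 4 passed the adjusted p and DESeq2 called 1. The 4 that passed were Aplnr in male normoxia (log2 fold change 0.85, standard error 0.18, adjusted p = 0.0402) and, in male hypoxia, Plvap (log2 fold change 0.66, standard error 0.13, adjusted p = 0.00486), Tbx2 (log2 fold change -0.45, standard error 0.11, adjusted p = 0.0125) and Car4 (log2 fold change -0.43, standard error 0.15, adjusted p = 0.0489). In male hypoxia, where 37% of all genes passed the adjusted p, all Control libraries were listed and no Cav1-RC library was. Plvap gave 0.33 (adjusted p = 0.777) there with the list term, and Tbx2 (0.15, adjusted p = 0.784) and Car4 (0.10, adjusted p = 0.904) turned sign. In male normoxia, 2 of the 3 Cav1-RC libraries had sex genes that went against the label, and without the 4 libraries of doubtful sex the Aplnr value did not pass (adjusted p = 0.839). Aplnr with the sexes together in normoxia gave 0.65 (standard error 0.17, adjusted p = 0.0793), so whether Cav1-RC lungs matched Control lungs for this gene was not shown by the test.

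**Figure D4:**
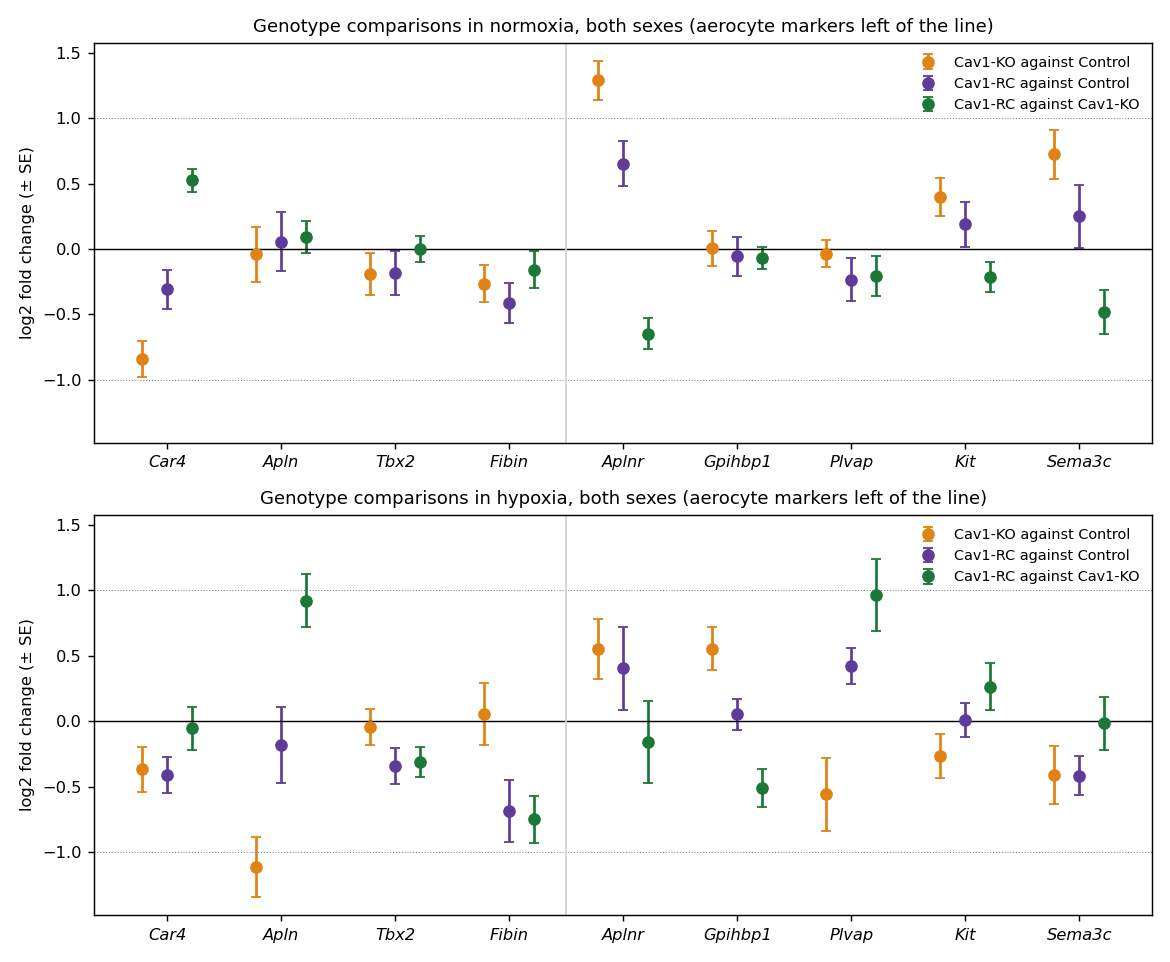
Log2 fold change of each marker between genotypes with the sexes together (points, with the standard error as bars), in normoxia above and in hypoxia below, with dotted lines at the fold threshold. In normoxia Aplnr is above 1 for Cav1-KO against Control, and in hypoxia Apln is below -1.

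No marker passed a test of whether the sexes responded differently. The difference of each fold change, female minus male, was tested for 9 markers in each of 9 comparisons, and edgeR passed 0 of 81, with 6 at an unadjusted p under 0.05. No DESeq2 fit was made of it. The share of all genes that passed was 0% for Cav1-KO against Control in normoxia and hypoxia, 0% for Cav1-RC against Cav1-KO in normoxia and hypoxia, 0% for Cav1-RC against Control in normoxia and hypoxia, and 0% for hypoxia against normoxia in Control, Cav1-KO and Cav1-RC lungs. With 2 or 3 libraries a group, and 4 libraries of doubtful sex, such a result does not show that the sexes responded alike.

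The ligands, receptors and enzymes that work with the markers gave 2 calls over both sexes. Apela, the other ligand of the apelin receptor, read at most 0.365 FPKM in any library and was too low to test. Of the 10 partners tested, Nrp1, a co-receptor of semaphorins, was the 1 called in hypoxic Cav1-KO lungs, where 17.6% of all genes were called. It was lower (log2 fold change -1.07, standard error 0.09, adjusted p = 1.61e-06). Its levels there were 13.3 to 18.2 FPKM, against 27.7 to 36.9 FPKM in Cav1-KO normoxia, without overlap. Nrp2, the related co-receptor, changed by -0.44 (adjusted p = 0.000352) and Plxnd1, a plexin receptor of semaphorins, by -0.27 (adjusted p = 0.0166) in the same comparison, under the fold threshold. All hypoxic libraries in it were listed.

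Lipoprotein lipase, which Gpihbp1 carries to the capillary lumen, is encoded by Lpl. It was higher in Cav1-KO than Control normoxia by 0.70 on the log2 scale (adjusted p = 0.00563), at 13.005 to 28.9 FPKM against 10.6 to 15.4. Angptl4, an inhibitor of the lipase, was called lower in the same comparison (log2 fold change -1.02, standard error 0.29, adjusted p = 0.0413), at 4.23 to 13.7 FPKM against 6.97 to 19.1, ranges that overlapped. It was the 1 partner of 10 called there, against 5.78% of all genes. Lmf1, which matures the lipase in the cell, did not pass in any of the comparisons over both sexes. Kitl, the ligand of Kit, had a log2 fold change of -0.72 (adjusted p = 0.0181) in hypoxic against normoxic Cav1-RC lungs. Among the T-box genes, Tbx4 (-0.71, adjusted p = 0.000142) and Tbx5 (-0.63, adjusted p = 0.00048) passed the adjusted p in hypoxic Cav1-KO lungs, and Tbx3 did not.

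Other genes of the aerocyte and general capillary lists gave a mixed picture. Of 8 other aerocyte genes in that list, none was called higher and 5 were called lower in hypoxic Cav1-KO lungs (median log2 fold change -1.30, against 0.02 over all genes tested), where 17.6% of all genes were called and every hypoxic library was listed. Among them were Emp2, a membrane protein of alveolar cells, at -2.22 (adjusted p = 5.69e-08) and Nckap5 at -1.74 (adjusted p = 3.44e-07). The others were Ednrb, an endothelin receptor (-1.60), Kdr, a receptor of vascular endothelial growth factor (-1.46), and Rprml (-1.14). Ednrb was the 1 gene of 8 called in Control lungs (-1.34, list median -0.33) and in Cav1-RC lungs (-1.11, list median -0.24), lower in both. Of 7 other general capillary genes, 2 were called lower in hypoxic Cav1-KO lungs (median -0.58), Glp1r, the glucagon-like peptide receptor, at -2.46 (adjusted p = 2.72e-07) and Ptprb, a phosphatase of endothelial junctions, at -1.02, against the same 17.6% of all genes, and none in Control or Cav1-RC lungs. Edn1, the gene of the vasoconstrictor endothelin-1, was higher in Cav1-RC than in Cav1-KO normoxia by 2.75 (adjusted p = 7.72e-07). Edn1 was also called higher in Cav1-RC than in Cav1-KO hypoxia (2.32) and than in Control lungs (2.51 in normoxia, 2.40 in hypoxia). The sequence and promoter of the reconstituted caveolin-1 are not given in the sources used here. Whether they add reads to Edn1 was not tested. Glp1r was called lower in Cav1-KO than Control hypoxia (-1.90) and higher in Cav1-RC than Cav1-KO hypoxia (1.78), and Il7r, an interleukin receptor, lower in Cav1-KO than Control normoxia (-1.10). In normoxia none of the 8 other aerocyte genes was called between genotypes over both sexes. In hypoxia Emp2 was lower in Cav1-KO than Control lungs (-1.22, adjusted p = 0.0163), and Emp2 (1.73), Kdr (1.36) and Nckap5 (1.04) were higher in Cav1-RC than in Cav1-KO lungs, whose libraries were all listed.

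Of 10 pan-endothelial genes, shared by all endothelial cells, 1 was called higher in hypoxic Control lungs (median 0.16, 0.846% of all genes called) and 2 in hypoxic Cav1-KO lungs (median 0.52, 17.6% of all genes), with none in Cav1-RC lungs (median -0.06, 1.22% of all genes) and none lower in any genotype. Emcn, an endothelial sialomucin, was called in both (1.32 and 1.26). Egfl7, an endothelial matrix protein, rose by 1.15 in hypoxic Cav1-KO lungs (adjusted p = 8.15e-06). Cdh5, the cadherin of endothelial junctions (-0.86, adjusted p = 3.09e-05), and Erg, an endothelial transcription factor (-0.45, adjusted p = 4.68e-05), passed the adjusted p downward there, under the fold threshold. Between Cav1-RC and Cav1-KO hypoxia, 2 of the 10 were called, both lower in Cav1-RC lungs (list median -0.53, 14.7% of all genes called). They were Egfl7 (-1.02, adjusted p = 0.000139) and Ramp2, a co-receptor of adrenomedullin (-1.16, adjusted p = 0.000186). Of 6 arterial and 6 venous genes none was called between oxygen levels in any genotype. In hypoxia, 2 of 6 arterial genes were called lower in Cav1-RC than Cav1-KO lungs, Sox17 (-1.23, adjusted p = 1.58e-05) and Hey1 (-1.01, adjusted p = 0.000404), and 2 of 6 venous genes higher, Slc6a2 (3.03, adjusted p = 5.96e-06) and Vwf (1.03, adjusted p = 0.000155). There 14.7% of all genes were called and every Cav1-KO library was listed. In normoxia 1 of 6 venous genes was called higher in Cav1-RC than Cav1-KO lungs (4.28% of all genes). Against Control lungs 1 of 6 was higher in normoxia (2.28%) and 1 of 6 in hypoxia (3.73%).

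Markers of cells that share genes with the 9 moved in some comparisons. Of 5 lymphatic genes, the 1 called between oxygen levels was Lyve1, the hyaluronan receptor of lymphatic vessels, which was lower in hypoxia in all genotypes, with the smallest adjusted p in Cav1-KO lungs (-1.70, adjusted p = 1.79e-05), while the list median had the opposite sign (0.36 for Cav1-RC, 0.39 for Cav1-KO and 0.63 for Control lungs). Of 5 alveolar type 2 genes, Abca3 (-1.40, adjusted p = 4.94e-06) and Lamp3 (-1.02, adjusted p = 9.29e-06) were called lower in hypoxic Cav1-KO lungs. There 17.6% of all genes were called and every hypoxic library was listed. No alveolar type 1 gene was called in any comparison over both sexes. Among erythroid genes, Slc4a1, the anion exchanger of red cells, was called higher in hypoxic Cav1-KO lungs at 4.04 (adjusted p = 0.000731). The part of these cell types in the marker results was not tested.

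Among mural and stromal lists, Col1a1 of 6 fibroblast genes was called lower (-1.21, adjusted p = 0.00026) and Higd1b of 5 pericyte genes higher (1.08, adjusted p = 6.5e-06) in hypoxic Cav1-KO lungs, and 3 of 5 smooth muscle genes were lower in Cav1-RC than Control hypoxia (3.73% of all genes called), with Cnn1 at -1.21 (adjusted p = 0.000273) and Acta2 at -1.12 (adjusted p = 0.000975). Of 6 mast cell genes, Mcpt4 was higher in Cav1-RC than Cav1-KO hypoxia (1.77, adjusted p = 0.000927) and Tpsb2 was lower in Cav1-RC than Control normoxia (-2.41, adjusted p = 0.0184). Cardiac, adipocyte and lymphocyte genes also differed between Cav1-RC and Cav1-KO hypoxia, where 14.7% of all genes were called: 3 of 5 cardiac genes were higher, with Nppa at 4.97 (adjusted p = 0.000978), all 3 tested of 4 adipocyte genes were higher, with Plin1 at 3.02 (adjusted p = 0.00149) and Cidec at 1.28 (adjusted p = 0.00427), and 3 of 5 lymphocyte genes were higher, with Cd3e at 2.25 (adjusted p = 3.44e-05) and Ms4a1 at 1.86 (adjusted p = 3.42e-05). In that comparison of Cav1-RC with Cav1-KO hypoxia, the erythroid genes Hbb-bs (-2.09) and Hba-a1 (-1.87) were called lower and Slc4a1 (-0.39) was not called. Of 5 alveolar type 2 genes, 1 was called higher there (list median 0.69). The cardiac gene Myh6 was lower in hypoxic than normoxic Cav1-KO lungs (-1.87, adjusted p = 3.44e-05). In each of these comparisons with Cav1-KO hypoxia, that side was made up of listed libraries.

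For each marker, the protein-coding gene with the most similar profile was taken from 15653 genes by Pearson correlation of log2 CPM (counts scaled to library size) over the 34 libraries, which share group, oxygen level and list status. Plvap was most like Ednrb, an endothelin receptor of aerocytes (r = 0.931 over 34 libraries, 0.897 over the 22 unlisted ones), and Fibin was most like Slc5a12, a lactate transporter (0.910 and 0.920). Kit was most like Myzap (0.885 and 0.908), Apln like Antxr1 (0.873 and 0.756), Gpihbp1 like Smagp (0.871 and 0.651) and Tbx2 like Hsf4 (0.867 and 0.536). Sema3c was most like Ano5 (0.822 and 0.810), Aplnr like Mex3b (0.794 and 0.926) and Car4 like Cyp1a1 (0.778 and 0.837). The likeness of Tbx2 and of Gpihbp1 was thus weaker once listed libraries were left out. For none of the 9 was the most similar gene another of the 9.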

How the data were processed

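Whole-lung RNA was made into directional poly-A libraries and sequenced, 1 library a mouse. Per the labels and the study's methods, the authors mapped reads to mm10 with HISAT2 2.0.5 and counted them per gene with featureCounts 1.5.0-p3 at default parameters, a setting that does not use strand, so a gene and an antisense or overlapping neighbour may share reads. They deposited raw counts and, from the same reads, FPKM values, which are divided by gene length and library size. Levels are the authors' FPKM and all tests use the deposited counts. Libraries were grouped by the genotype, sex and oxygen level in the labels, 34 libraries in 12 groups, and 1 library stayed out.

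In R 4.3.3, edgeR 4.0.16 (TMM, filterByExpr, quasi-likelihood test) was fitted to each pair of groups, to both sexes together with a sex term, and to interactions, with Benjamini-Hochberg adjustment over all genes tested. A call needed an adjusted p under 0.05 and an absolute log2 fold change above 1, and interactions the adjusted p alone. Standard errors come from the fold change and the F statistic. The scripts were tested on simulated data. Alternatives were DESeq2 1.42.0, limma 3.58.1 on log2(FPKM + 1) or log2(FPKM + 0.1), RLE scaling, no filter on low counts, no fold threshold, 1 fit over all libraries, a list term, a replicate block and leaving out libraries. Fits of listed or of unlisted libraries alone were added after the data were seen.

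The 9 markers and the other gene lists were chosen with earlier results of these data known. The text names all 9 markers and their partners, from each other list up to 2 called genes with the smallest adjusted p over both sexes, and for each marker the most similar gene. Ednrb, Kdr, Rprml, Ptprb, Emcn, Cdh5, Erg, Il7r, Hbb-bs and Hba-a1 were named after their values were seen. Of the erythroid list, 1 gene and the counts that include it are not reported here. Same-numbered replicates did not deviate together (of 18 comparisons, 1 with only 2 pairs had every pair's correlation over 0.1, and none with 3 pairs did), so numbers did not pair the samples. Replicates of a group differed by more than counting noise in all 32 pairs compared.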

Additional observations from a re-analysis of the deposited data

Results flagged for a closer look

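The change with oxygen differed between Cav1-KO and Control lungs, by a test of the difference itself, for Apln (-1.09 on the log2 scale), Kit (-0.68) and Sema3c (-1.15). It differed between Cav1-RC and Cav1-KO lungs for Plvap (1.18), Apln (0.84) and Car4 (-0.57). All of these contain the 6 hypoxic Cav1-KO libraries, which were all listed, and none of the 6 passed once a term for listed libraries was fitted, with values of -0.63, -0.63 and -0.76 in the first comparison and 0.81, -0.28 and 0.12 in the second. Listed libraries of the same group differed from the others in Apln, Sema3c and Car4 by -0.91, -0.84 and 0.55, and Kit and Plvap did not pass that test.

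Aplnr read 29.5 FPKM in the 1 library that the labels put in no group, above the 10.2 to 21.8 FPKM of the 12 Control libraries, within the 15.2 to 31.3 FPKM of the 6 hypoxic Cav1-KO libraries and below the 33.0 to 47.1 FPKM of the 5 normoxic ones, the genotype and oxygen level that its labels give as possible.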

How the results depend on the processing

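Of the single-marker values recomputed under the alternatives, 4578 kept their side of the threshold, 89 newly passed, 47 no longer passed and 2 that had passed changed sign. Of the 4578, 256 changed sign with neither value called, 6 of them from a value past the adjusted p, all with the list term (Tbx2 in 3, Gpihbp1 in 2, Car4 in 1). The falls of Plvap and Fibin over both sexes stayed called in every genotype with the list term and without the 4 libraries of doubtful sex. Calls between hypoxia and normoxia ran from 8 to 16 of 54 under every alternative (11 in the report).

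Between Cav1-KO and Control lungs, 1 call of 36 became 4 without a filter on low counts, 4 by DESeq2, 3 without the fold threshold, 3 in 1 fit of 34 libraries, 4 without the 4 libraries of doubtful sex and 1 to 3 with 1 library left out. Between Cav1-RC and Cav1-KO lungs, 2 calls became 7 without the fold threshold, 1 by limma on log2(FPKM + 1) with no filter, 1 with the list term, 1 without the 4 libraries and 1 to 3 with 1 library left out. Between Cav1-RC and Control lungs, 0 calls became 1 without the filter, by DESeq2, in 1 fit of 34 libraries, with the list term and without the 4 libraries, 4 without the fold threshold, and 0 to 1 with 1 library left out. Over both sexes, 11 calls of 81 became 23 without the fold threshold. Differences between the sexes went from 0 to 3 without the filter, and those of genotype by oxygen from 6 to 12 without the filter and to 1 with the list term. There the Cav1-RC against Cav1-KO values changed sign for Car4 (0.12, adjusted p = 0.921) and Apln (-0.28, adjusted p = 0.871). The cause was not tested.

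With the replicate number as a block, the calls were 4 (Cav1-KO against Control), 3 (Cav1-RC against Cav1-KO), 1 (Cav1-RC against Control), 14 (hypoxia against normoxia) and 12 (both sexes); every sample correlated best with its own number in 3 of 18 comparisons.

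Calls within a sex that missed the adjusted p without 1 library were Fibin in male Control hypoxia (adjusted p = 0.0592 without hypoxia replicate 1, 0.0525 without replicate 3), Sema3c there (0.0605 without hypoxia replicate 1, 0.0547 without normoxia replicate 3), Kit in female Cav1-KO hypoxia (0.0548, 0.0975 and 0.0588) and Apln between female Cav1-RC and Cav1-KO hypoxia (0.0617 and 0.0633). Calls that fell under the fold threshold were Sema3c in male Control hypoxia (0.89 without hypoxia replicate 2, 0.94 without normoxia replicate 2), Fibin in male Cav1-KO hypoxia (-0.99 without normoxia replicate 3) and between male Cav1-RC and Cav1-KO hypoxia (-0.99 without Cav1-RC replicate 2), and Apln in female Cav1-KO hypoxia (-0.996 without normoxia replicate 2).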

Other observations

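The library that the labels put in no group, because its identity is uncertain, is named there only as possibly that of a normoxic Cav1-KO female. It came from an animal on the western blot list. The library read 1.34 FPKM of Cav1, and among the aerocyte markers 99.95 of Car4, 7.62 of Apln, 156 of Tbx2 and 21.6 of Fibin. The general capillary markers read 29.5 FPKM for Aplnr, 100.2 for Gpihbp1, 24.5 for Plvap, 11.3 for Kit and 141 for Sema3c. Its Plvap level lies within the 21.4 to 101 FPKM of the 18 hypoxia libraries and below the 166 to 406 FPKM of the 16 normoxia libraries, the oxygen level that the labels propose, and its Apln level lies below that of all 34 grouped libraries.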
